A study of Mus musculus with 6 samples.

Results

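The cone phototransduction genes are the 10 genes whose products let a cone photoreceptor turn light into an electrical signal and stop that signal again. They were taken by symbol: Opn1sw, Opn1mw, Arr3, Gnat2, Gnb3, Gngt2, Pde6c, Pde6h, Cnga3 and Cngb3. All 10 have a row among the 24346 gene symbols measured in each library. The data are 6 stranded mRNA libraries of mouse tissue that the labels call brain at embryonic day 17.5, each given as FPKM (fragments scaled to transcript length and to library size). The DKO group holds 3 libraries, whose labels name a double knockout for miR-124a-1 together with miR-124a-2. The control group holds 3 libraries with the genotype miR-124a-1+/-. The control group therefore carries a lost allele too and is not wild type. The labels give no strain, litter or batch, and p-values measure the spread between these libraries only.

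In a cone, light activates an opsin, which switches on the G protein transducin, and transducin frees the catalytic subunit of a cGMP phosphodiesterase from its inhibitory subunit. The fall in cGMP closes a cation channel made of A and B subunits, and arrestin binds the activated opsin to end its signal. Mouse cones use a short-wavelength opsin, a middle-wavelength opsin or both, and each step has a close relative in rods that is encoded by another gene. MiR-124 is a neuronal microRNA that retinal photoreceptors also contain, and mice lacking the host gene of miR-124a-1 are known for a loss of cones. This is the question that a comparison of cone genes between the groups addresses here.

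Retinal genes stood high in these libraries, against a label of embryonic brain. Sag, the rod arrestin, ranked 3 of all rows by mean level, at 2841 to 3594 FPKM, and Gnat1, the alpha subunit of rod transducin, ranked 4. Of 6 markers of dividing cells, Mki67, Top2a, Ccnb1 and Cdk1 lay at 0.0765 to 0.438 FPKM, Mcm2 at 1.62 to 2.58 and Pcna, which also serves DNA repair, at 45.2 to 58.5 FPKM. The 7 markers of cortical neurons summed to 9.11 to 10.3 FPKM, with Emx1 listed at 0 and Neurod2 highest at 4.94 to 6.29 FPKM. A list of 11 markers of bipolar cells, the retinal neurons that photoreceptors signal to, summed to 1126 to 1285 FPKM. Of 5 markers of the pineal gland, another tissue with phototransduction genes, Asmt was listed at 0, Aanat lay at 0.204 to 0.604 FPKM and Tph1 at 0.673 to 2.01, while Chrna3 lay at 5.25 to 7.27 and Lhx4 at 15.4 to 21.1 FPKM. That list summed to 24.1 to 28.5 FPKM. The 7 pigment epithelium markers summed to 5.57 to 7.67 FPKM. The host transcripts of the deleted microRNAs did not show the loss that the labels name. Mir124a-1hg measured 492 ± 24.5 FPKM in the libraries labelled DKO against 480 ± 54.9 in control (SD, n = 3 each). The host of miR-124a-2, listed as 2610100L16Rik, measured 88.5 ± 16.2 against 102 ± 18.9 FPKM (SD, n = 3 each). These rows do not check the deletion itself, since a transcript can remain without its microRNA, and each direction given here takes the labels at their word.

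The members differ in chromosomal position and in promoter sequence, whose part in the levels was not tested. The short-wavelength opsin gene Opn1sw lies on chromosome 6 (GRCm38, 29376671 to 29388468, minus strand) and the middle-wavelength opsin gene Opn1mw on chromosome X (74127464 to 74150760, plus strand). Arr3, the cone arrestin gene, is also on chromosome X (100605497 to 100618493, plus strand). The stretches printed here run from 250 to 11 bases before the RefSeq transcript start, on the gene's strand, and hold no annotated exon of their gene. They are shown because the opsin values of all DKO libraries lay below those of all controls, while those of Arr3 did not. Capitals mark TAATC or its reverse complement GATTA, the core of the site bound by Crx and Otx2, homeodomain factors of photoreceptors.
Opn1sw, chr6:29380524-29380763, minus strand: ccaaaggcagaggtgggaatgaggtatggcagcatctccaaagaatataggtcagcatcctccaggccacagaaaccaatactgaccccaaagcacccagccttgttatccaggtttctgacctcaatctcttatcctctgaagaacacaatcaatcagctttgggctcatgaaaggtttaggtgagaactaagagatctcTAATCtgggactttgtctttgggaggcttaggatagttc
Opn1mw, chrX:74127216-74127455, plus strand: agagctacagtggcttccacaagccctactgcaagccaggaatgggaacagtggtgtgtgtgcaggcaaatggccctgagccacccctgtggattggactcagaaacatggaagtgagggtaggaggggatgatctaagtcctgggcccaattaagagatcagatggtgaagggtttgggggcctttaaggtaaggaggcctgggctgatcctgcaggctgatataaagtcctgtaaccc
Arr3, chrX:100605247-100605486, plus strand: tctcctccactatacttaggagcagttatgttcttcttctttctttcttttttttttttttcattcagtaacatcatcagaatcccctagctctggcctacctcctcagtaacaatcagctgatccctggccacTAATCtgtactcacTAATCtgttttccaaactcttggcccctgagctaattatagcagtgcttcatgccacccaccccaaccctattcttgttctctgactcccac

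The Opn1sw stretch held 1 core, 49 bases before the start, and the Opn1mw stretch held none. The Arr3 window held 3, at 116, 102 and 10 bases before the start, the last of them just past the printed stretch. RefSeq promoter windows of 300 bases (250 before to 50 after the start, build GRCm38.p6) were at hand for 6 members, which leaves out Gnb3, Gngt2, Pde6c and Cngb3. Of the 6 genes, 1 held the longer motif TAATCC or GGATTA, namely Gnat2, whose window lies inside an annotated exon and is not printed. In all 32851 windows that motif occurred in 7.06%, which by gene was 2199 of 27025, and in the 6 rod counterparts with a window it occurred in 4. The 5-base core, searched after the promoters had been seen, occurred in 3 of these 6 members (Opn1sw, Arr3 and Gnat2) and in 5 of the 6 rod counterparts. It occurred in 22.0% of all windows, which by gene was 6660 of 27025. A match is a run of letters and no evidence of binding.

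GTGCCTT, the target site complementary to miR-124-3p from its position 2 to position 8, occurred in the longest annotated 3' UTR of 1 of the 10 members. Of 12168 tested genes with a 3' UTR, 16.1% held it, and of 9 rod counterparts 2 did. The 3' UTRs of the members were short, with a median of 533 bases against 1258.5 over all tested genes. With a 6-base site, TGCCTT, the count was 2 of 10 members, against 50.8% of all tested genes.

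Mean levels of the 10 genes ran from 4.47 to 239 FPKM. Gnb3, the transducin beta subunit of cones, which ON bipolar cells also use, had the highest mean at 239 FPKM (range 215 to 272 over the 6 libraries). It ranked 231 of 24346 rows. Pde6h, the inhibitory phosphodiesterase subunit, followed at 226 FPKM (211 to 238), and was below Gnb3 in 6 of 6 libraries although their ranges overlapped. Gngt2, the transducin gamma subunit, had 123 FPKM (108 to 142), without overlap with Pde6h. Opn1sw was next at 112 FPKM (93.3 to 126), then Opn1mw at 91.0 FPKM (74.9 to 116) and Arr3 at 68.2 FPKM (57.7 to 76.6). Gnat2, the transducin alpha subunit, had 51.0 FPKM (45.1 to 58.5). From Gngt2 to Gnat2 the range of each gene overlapped that of the next. Pde6c, the catalytic phosphodiesterase subunit, had 34.0 FPKM (29.2 to 40.7), below Gnat2 in all libraries and without overlap. The channel subunits were lowest and apart from Pde6c, with Cngb3 at 5.30 FPKM (4.70 to 6.29) and Cnga3 at 4.47 FPKM (3.78 to 5.41). Their order was not the same in every library, with Cngb3 above Cnga3 in 4 of 6.

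**Figure D1:**
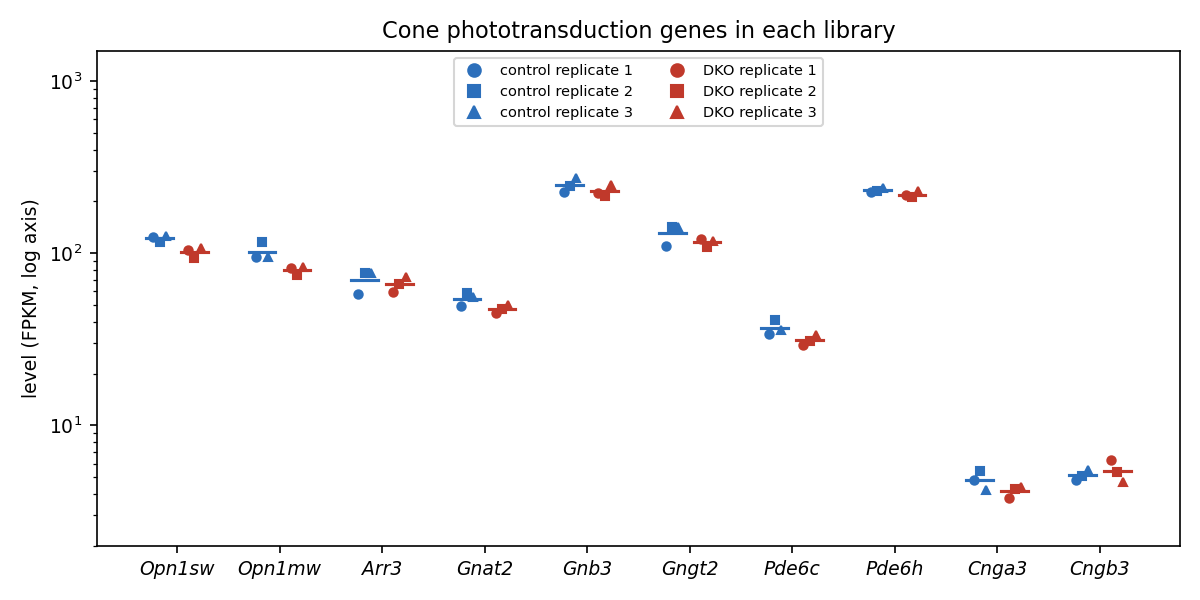
FPKM of the 10 cone phototransduction genes (log axis) in each library, with a marker for each replicate and a line at each group mean. Gnb3 and Pde6h lie above 200 FPKM in all 6 libraries, while Cnga3 and Cngb3 lie between 3.78 and 6.29 FPKM.

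Subunits that work as a complex were not listed at equal levels per length. Pde6h exceeded its partner Pde6c by 5.68 to 7.44 times in each library. Gnb3 exceeded Gnat2 by 4.21 to 4.99 times and Gngt2 exceeded Gnat2 by 2.23 to 2.69 times. Opn1sw was 1.24 to 1.33 times Opn1mw in 5 libraries, while in control replicate 2 they were nearly equal. None of 6 such ratios differed between the groups after adjustment. The smallest value was that of Pde6h over Pde6c, 7.04 ± 0.344 against 6.33 ± 0.563 (SD, n = 3 each; 2-sided exact permutation test, p = 0.1, and 0.6 when adjusted over the 6 ratios). With 3 libraries against 3 this test cannot go below 0.1.

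Both cone opsins had lower values under the DKO label than under the control label, but neither passed the test over all genes. Opn1sw measured 104, 93.3 and 108 FPKM in DKO replicates 1, 2 and 3, and 124, 116 and 126 FPKM in control replicates 1, 2 and 3. Every DKO value lay below every control value. The log2 fold change, DKO minus control on log2(FPKM + 1), was -0.26 with SE 0.06 and a 95% confidence interval from limma of -0.41 to -0.12. The adjusted p was 0.378 (limma, Benjamini-Hochberg over 13215 rows). As group means this is 102 ± 7.56 against 122 ± 5.02 FPKM (SD, n = 3 each), a difference of -16.6%.

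Opn1mw measured 81.9, 74.9 and 83.4 FPKM in the DKO libraries and 95.2, 116 and 94.6 FPKM in the control libraries. Its groups did not overlap either, and control replicate 2 stood above the other controls. It had the largest difference among the members, -0.34 with SE 0.08 (95% confidence interval -0.53 to -0.14, limma, adjusted p = 0.388). Without control replicate 2 the log2 difference of Opn1mw was -0.24 and that of Opn1sw, at -0.30, was the larger. In bulk libraries such as these, fewer cones and less opsin RNA in each cone cannot be told apart. Opn1sw shares 397 of its 2557 exon bases with Calu on the opposite strand, and whether the counting used strand is not given in the sources used here. Calu measured 49.0 to 54.3 FPKM in DKO and 53.8 to 57.6 in control, and its part in the Opn1sw difference was not tested.

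Among the transducin subunits, Gnat2, which carries the signal from opsin to phosphodiesterase, measured 45.1, 47.2 and 50.1 FPKM in DKO and 49.4, 58.5 and 55.4 FPKM in control. DKO replicate 3 lay above control replicate 1, so the groups overlapped by a small amount. The log2 fold change was -0.19 with SE 0.07 (95% confidence interval -0.36 to -0.03, limma, adjusted p = 0.591). Gnb3 measured 225, 215 and 247 FPKM in DKO and 227, 246 and 272 FPKM in control, and its groups overlapped. Its log2 fold change was -0.12 with an interval of -0.29 to 0.06. It was -0.18 without control replicate 1, -0.071 without DKO replicate 2 and -0.047 without control replicate 3. Gngt2 measured 121, 108 and 117 FPKM in DKO and 110, 142 and 141 FPKM in control. Control replicate 1 was in the midst of the DKO values, and the log2 fold change of -0.17 had an interval of -0.40 to 0.06. It was -0.29 without control replicate 1, -0.11 without control replicate 2 and -0.12 without control replicate 3. Gngt2 shares 234 exon bases with Abi3 on the opposite strand, which itself lay at 1.13 to 1.66 FPKM in DKO and at 1.66 FPKM in the lowest control library. Its part in the Gngt2 values was not tested.

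The catalytic phosphodiesterase subunit Pde6c measured 29.2, 30.7 and 33.6 FPKM in DKO and 34.1, 40.7 and 35.7 FPKM in control. The groups did not overlap, although DKO replicate 3 and control replicate 1 were close. The log2 fold change was -0.23 with SE 0.08 (95% confidence interval -0.41 to -0.05, limma, adjusted p = 0.550). Its inhibitory partner Pde6h measured 218, 211 and 229 FPKM in DKO and 227, 231 and 238 FPKM in control, with an overlap between DKO replicate 3 and control replicate 1. It shares 136 of its 7846 exon bases with Arhgdib on the opposite strand, a gene at 3.12 to 4.76 FPKM. The log2 fold change of Pde6h was -0.08, with the narrowest interval of the members, -0.19 to 0.03, and it was -0.054 without DKO replicate 2.

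Arr3, the arrestin, and the channel genes had smaller or less steady differences. Arr3 measured 59.8, 65.9 and 72.9 FPKM in DKO and 57.7, 76.4 and 76.6 FPKM in control, where replicate 1 held the lowest value of all 6. Its log2 fold change was -0.08 with an interval of -0.35 to 0.20. It was -0.21 without control replicate 1 and -0.15 without DKO replicate 3. It was -0.0066 without DKO replicate 1, -0.011 without control replicate 2 and -0.0084 without control replicate 3. Cnga3, the A subunit of the cGMP-gated channel, measured 3.78, 4.27 and 4.38 FPKM in DKO and 4.81, 5.41 and 4.18 FPKM in control. Its log2 fold change was -0.17 (interval -0.42 to 0.08), and -0.095 without control replicate 2. Cngb3, the B subunit, measured 6.29, 5.39 and 4.70 FPKM in DKO and 4.80, 5.09 and 5.53 FPKM in control. It was the single member above 0, at 0.07 with an interval of -0.19 to 0.32, and it turned to -0.023 without DKO replicate 1.

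**Figure D2:**
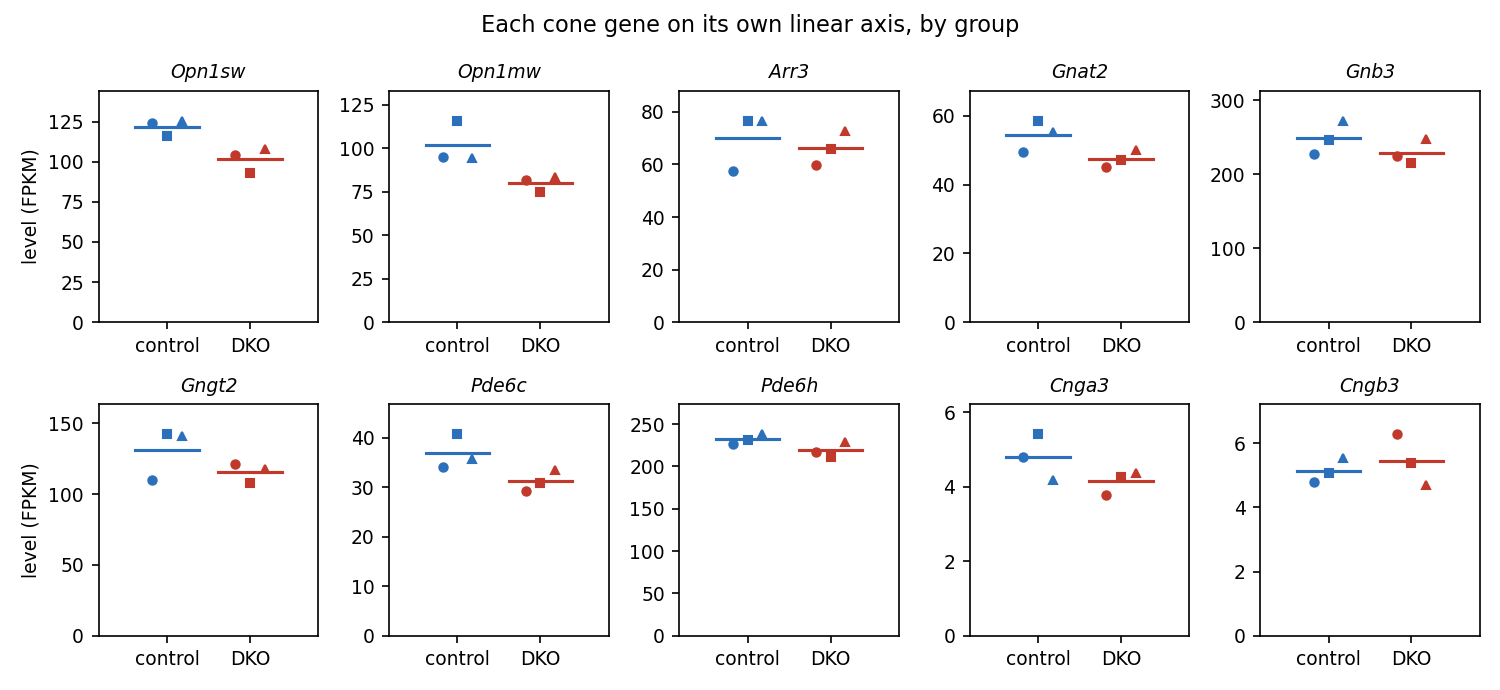
FPKM of each cone gene on its own linear axis from 0, with the control libraries in blue and the DKO libraries in red (circle, square and triangle for replicates 1, 2 and 3) and a line at each group mean. The groups of Opn1sw, Opn1mw and Pde6c do not overlap, and those of the other 7 genes do.

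None of the 10 members passed the adjusted threshold of 0.05, at which 3 of 13215 rows (0.0227%) were called. All 10 had a mean of at least 1 FPKM and entered the fit. In 9 of 10 the log2 fold change was below 0, and their median was -0.17, against 50.5% of all tested rows below 0 and a median of -0.0016. The groups did not overlap, with DKO lower, in 3 of 10 members (Opn1sw, Opn1mw and Pde6c) and in 6.95% of all tested rows. At an unadjusted p under 0.05 in limma 4 of 10 members were lower (those 3 and Gnat2), against 4.36% of all tested rows. The count of 4 became 2, Opn1sw and Opn1mw, without DKO replicate 1, without DKO replicate 2 and without control replicate 2. Without DKO replicate 3 the groups of 6 members did not overlap, and without control replicate 1 those of 7, where 12.4% and 13.1% of all rows did the same. The 10 genes were measured in the same libraries, so these counts are not 10 independent observations.

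Apart from Cngb3, the cone genes were positively correlated with each other over the libraries. DKO replicate 2 held the lowest value of 5 members and control replicate 2 the highest of 5. Over the 45 pairs of members, Pearson's r of log2 values across the 6 libraries ran from -0.68 (Cnga3 with Cngb3) to 0.97 (Gnat2 with Pde6c), with a median of 0.66. Opn1mw and Pde6c were at 0.92. Of the 9 pairs with Cngb3, 8 were below 0, and the 36 pairs among the other members ran from 0.14 to 0.97. These points share library and group, so r is a description. The sum of the 10 genes was 856 to 951 FPKM in DKO and 934 to 1050 FPKM in control, so that DKO replicate 3 exceeded control replicate 1. Among 7601 other rows averaging 10 FPKM or more, those most like the mean profile of the members were Cenpb (r = 0.99), Repin1, Tle2, Ankrd16 and Nelfcd (0.97 to 0.98). They are the highest of 7601 values of r over 6 libraries, and a link to the cone genes was not tested.

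The rod genes for the same steps had a median difference nearer 0, and whether cone and rod differences were unequal was tested only through the shares given next. Of 9 rod counterparts, 6 were below 0 and 3 above, with a median log2 fold change of -0.03. In limma 0 were called, against 0.0227% of all tested rows. At an unadjusted p under 0.05 there were also 0, where 4.36% of all tested rows were lower, so 0 of 9 is near that share. Gnat1 had -0.0062 (95% confidence interval -0.15 to 0.14). Pde6a and Pde6b, the catalytic subunits of rods, had 0.0040 and -0.04. The largest were Cnga1, the rod channel A subunit, at -0.13 (-0.28 to 0.01), and Sag at -0.10 (-0.31 to 0.10).

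**Figure D3:**
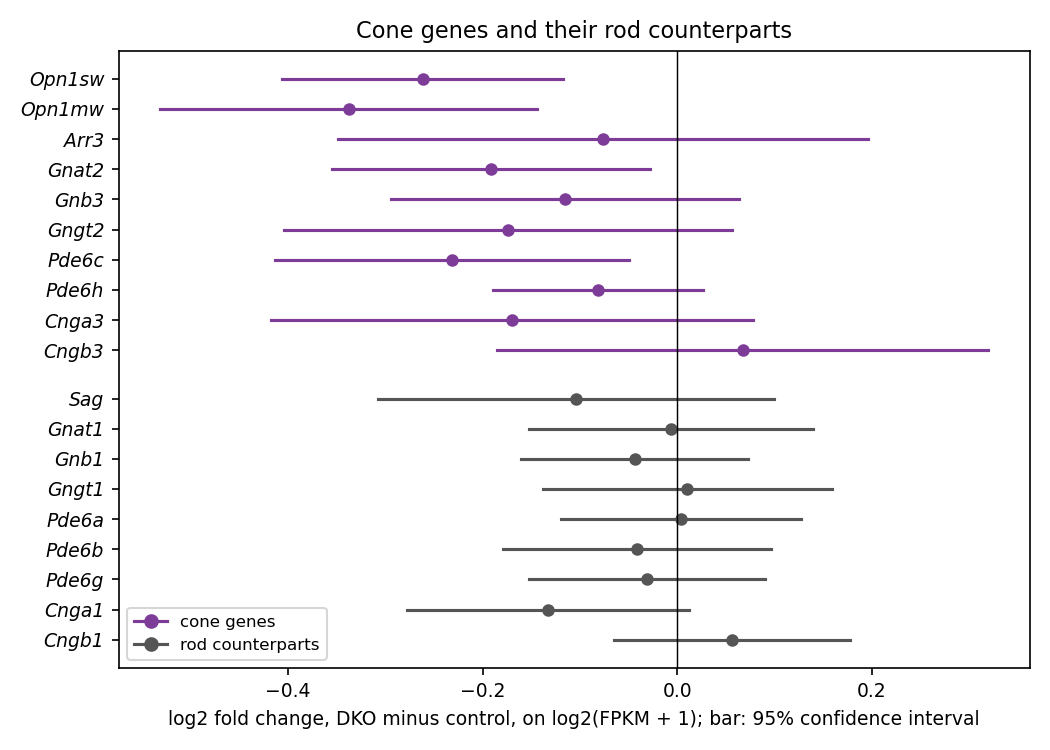
Log2 fold change (DKO minus control, on log2(FPKM + 1)) with the 95% confidence interval from limma for the 10 cone genes (purple) and 9 rod counterparts (grey). The intervals of Opn1sw, Opn1mw, Gnat2 and Pde6c lie below 0, those of the other 6 cone genes and of all 9 rod genes include 0, and none of these genes passed adjustment over all rows.

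To compare cone and rod within a library, 8 cone genes other than the opsins were expressed as a percent of themselves plus their rod counterpart, which removes what the genes of a pair share. Gnat2 made up 1.66%, 1.77% and 1.84% of Gnat2 plus Gnat1 in DKO and 1.91%, 2.00% and 2.07% in control, without overlap. Pde6c made up 4.83% ± 0.197 of Pde6c plus Pde6b in DKO and 5.51% ± 0.513 in control (SD, n = 3 each). That difference of -0.68 percentage points was -0.39 without control replicate 2. In both pairs every DKO share was below every control share (2-sided exact permutation test, p = 0.1 each, the smallest it can give, and 0.4 when adjusted over the 8 pairs).

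The other 6 pairs overlapped between the groups. Gnb3 was 14.8% ± 1.14 of Gnb3 plus Gnb1 in DKO and 15.4% ± 0.970 in control, and Pde6h was 9.85% ± 0.471 of Pde6h plus Pde6g against 10.2% ± 0.161 (SD, n = 3 each). Gngt2 made up 11.0% ± 0.841 of Gngt2 plus Gngt1 against 12.5% ± 2.26 (SD, n = 3 each), with control replicate 1 lowest at 9.87%. Gnb1 is used by many cell types, so that pair is no measure of cones against rods alone. Arr3 with Sag had 2.05% against 2.01%, Cnga3 with Cnga1 1.63% against 1.73%, and Cngb3 with Cngb1 1.85% against 1.80%, as means of DKO against control. Without DKO replicate 2 the difference in the Gnb3 share went from -0.63 to -0.020 percentage points and that in the Pde6h share from -0.31 to -0.062. The Gnb3 difference was -0.12 without control replicate 3, -1.15 without DKO replicate 3 and -1.09 without control replicate 1, and the Pde6h difference was -0.53 without DKO replicate 3. The Gngt2 difference of -1.43 was -2.74 without control replicate 1, -0.95 without DKO replicate 2, -0.73 without control replicate 2 and -0.83 without control replicate 3. The Cnga3 difference of -0.095 was -0.0039 without control replicate 2, -0.056 without control replicate 1 and -0.23 without control replicate 3. The sign of the Arr3 difference changed without DKO replicate 3 (-0.013 percentage points) and without control replicate 1 (-0.067), and that of Cngb3 without DKO replicate 1 (-0.10).

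**Figure D4:**
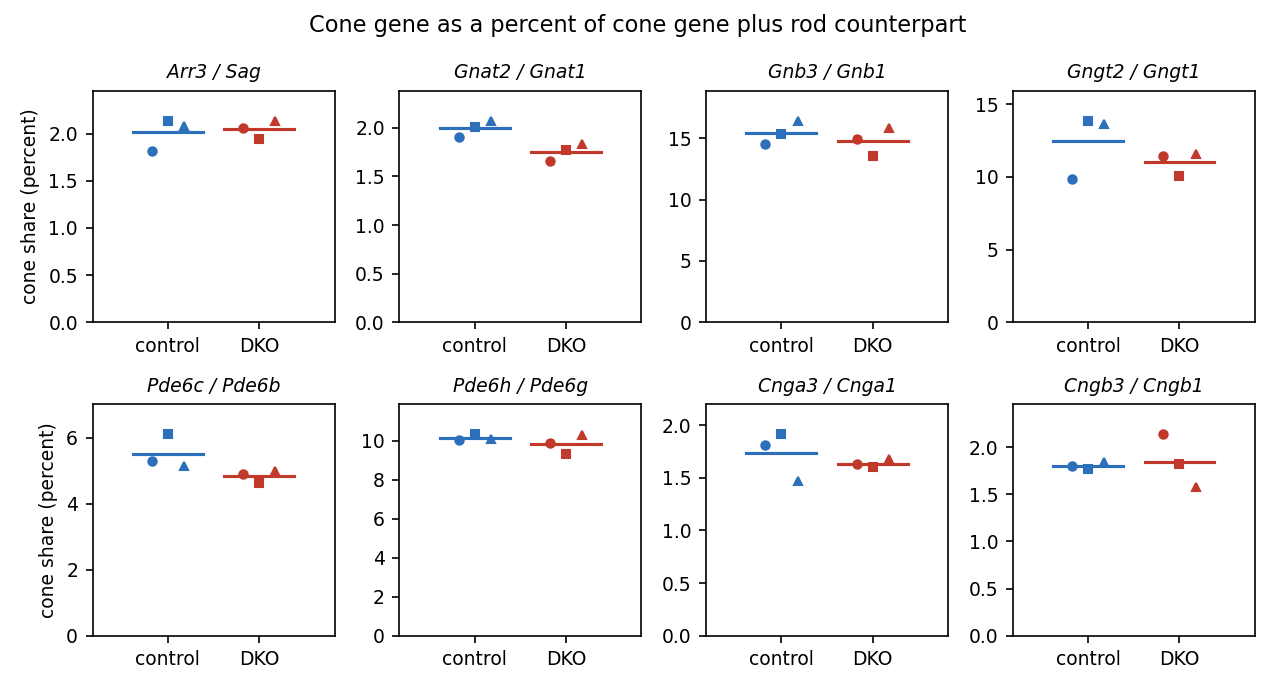
Each of 8 cone genes as a percent of cone gene plus rod counterpart (linear axes from 0), by library (circle, square and triangle for replicates 1, 2 and 3), with a line at each group mean. The DKO shares lie below all control shares for Gnat2 and Pde6c, and overlap with them in the other 6 pairs.

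Other genes enriched in cones gave a mixed picture. Of 6 such genes, 0 were called in limma, and 4 were below 0 and 2 above. In 1 of them the groups did not overlap, with DKO lower, against 6.95% of all tested rows. That one was Kcne2, a potassium channel subunit, at 36.4, 37.0 and 37.7 FPKM in DKO and 41.6, 47.6 and 45.7 FPKM in control. Its log2 fold change was -0.27 with SE 0.06 (95% confidence interval -0.41 to -0.14, limma, adjusted p = 0.308), of the size seen for the opsins. Thrb, the thyroid hormone receptor that directs the middle-wavelength opsin, lay at 13.8 to 17.4 FPKM in DKO and 15.5 to 18.1 FPKM in control, with a log2 fold change of -0.06. Ccdc136 had -0.08 and Otop3, a proton channel gene, -0.11. Rxrg, a retinoid receptor of cones, had 0.15, and Sall3, a factor of cones, had 0.02.

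Genes that stop the response or restore it, and that rods mostly share, had a median near 0. Of 14 such genes 8 were below 0 and 6 above, with a median log2 fold change of -0.0045 and 0 called in limma. Groups that did not overlap occurred in 0 of the 14. Over all tested rows the share was 6.95% with DKO lower and 6.96% with DKO higher. Pdc, the transducin-binding protein phosducin, had -0.15, and Guca1a, an activator of guanylate cyclase in cones and rods, had -0.15. Rcvrn, the calcium sensor recoverin, had 0.0014, Guca1b -0.0050 and Gnb5, a partner of the shutoff protein Rgs9, -0.09. Of 10 photoreceptor transcription factors 8 were below 0, the median was -0.07 and 0 were called in limma. Nrl, the factor that sets rod fate, was at 593, 637 and 617 FPKM in DKO and 676, 679 and 660 FPKM in control. Its log2 fold change was -0.13 (95% confidence interval from limma -0.23 to -0.02). Among the 10 factors only Nrl had groups that did not overlap, with DKO lower, against 6.95% of all tested rows. Crx had -0.07, Nr2e3 -0.08 and Neurod1 0.02, and Rax had -0.27 with an interval of -0.55 to 0.01.

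Marker lists of other retinal cells had medians on both sides of 0 in the same libraries. Of 7 ganglion cell markers 6 were below 0 and 5 did not overlap, with DKO lower, against 6.95% of all tested rows. Their median log2 fold change was -0.14, and the list summed to 598 to 620 FPKM in DKO against 649 to 699 in control. Of 11 bipolar markers 8 were below 0 and 4 did not overlap, with DKO lower, against the same 6.95% of all tested rows (median of the list -0.09), and the list summed to 1126 to 1182 FPKM against 1239 to 1285. Pcp2 of that list had -0.21 and Trpm1, the channel of ON bipolar cells, -0.14. The 3 markers above 0 were Grm6 (0.06), Nyx (0.10) and Prkca (6.0e-05). Amacrine markers lay on the other side, with 6 of 7 above 0. In 5 the groups did not overlap, with DKO higher, against 6.96% of all tested rows. The median of the list was 0.18, while its sum of 698 to 711 FPKM in DKO lay within the control range of 672 to 718. That sum includes Calb2, the highest row of the list and the 1 marker below 0. Calb2 lay at 279 to 292 FPKM in DKO and at 315 to 341 FPKM in control, so the sum does not reflect the other markers alone. Tfap2b had 0.25 and Calb2 -0.19. The 5 horizontal cell markers had a median of -0.06, with 4 below 0 and 1, Onecut1 (0.22), above. In 2 of them, Calb1 (-0.33) and Lhx1 (-0.25), the groups did not overlap, with DKO lower, against 6.95% of all tested rows. The 7 Müller glia markers had a median of 0.03, with 2 below 0 and 5 above. Without overlap, Vim (-0.21) was lower and Abca8a (0.17) higher, against 6.95% and 6.96% of all tested rows. None of the genes in these 5 lists was called in limma. The part of such differences between cell types in the values of the cone genes, including Gnb3 of ON bipolar cells, was not tested.

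**Figure D5:**
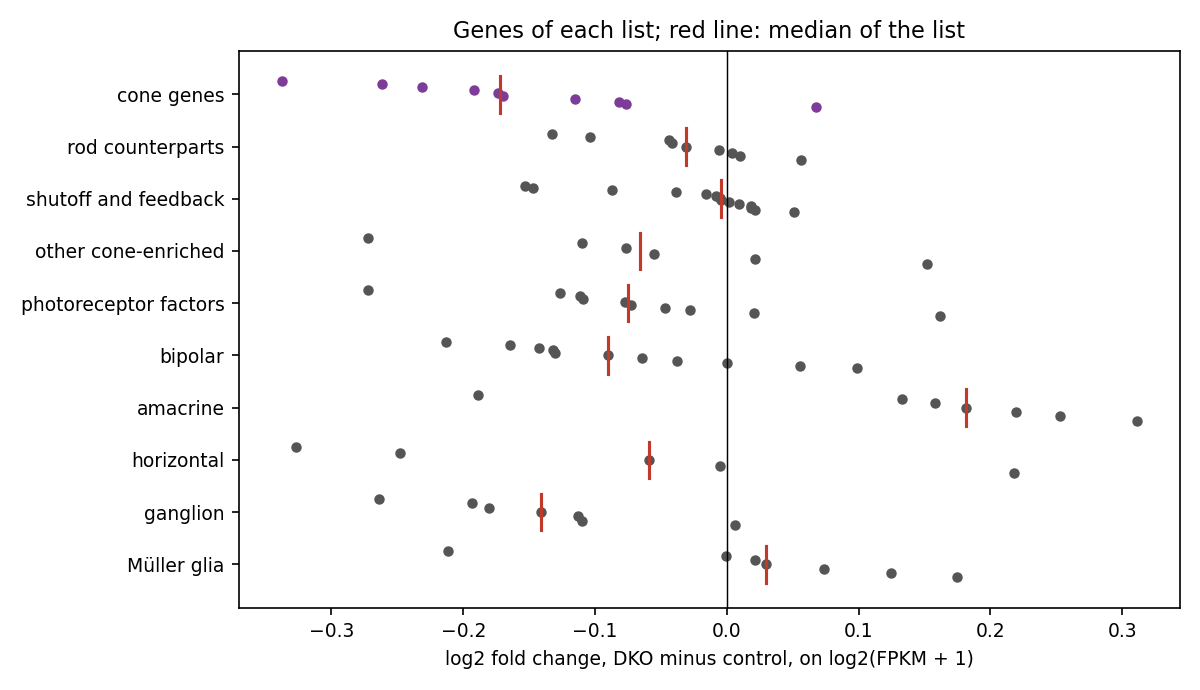
Log2 fold change (DKO minus control, on log2(FPKM + 1)) of each tested gene in 10 lists, with a red line at the median of each list and the cone genes in purple. The cone median of -0.17 and the ganglion cell median of -0.14 lie lowest, the amacrine median of 0.18 lies highest, and 0 of the genes shown passed adjustment over all rows.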

How the data were processed

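The deposited values are FPKM, per the file headers, with the same 24346 rows in each library. The submitters' processing notes name TopHat2 2.1.1, Bowtie2, Cuffdiff 2.2.1 and mm10. Annotation, strand setting and scaling are not stated there. Headers of the libraries labelled DKO read CKO, which the labels do not explain. FPKM holds no read totals, and steps between low values gave depths of 0.956 to 1.24 relative to DKO replicate 1.

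The 13215 rows averaging 1 FPKM or more were fitted with limma 3.58.1 (R 4.3.3) on log2(FPKM + 1), with a variance trend and Benjamini-Hochberg adjustment, threshold 0.05, after a test on simulated data. This scale understates fold changes of low rows. Shares and ratios took an exact permutation test over 20 assignments. The members and lists were chosen with earlier results of these data known. Genes named are all members, 9 rod counterparts and, per list, genes among the 4 of highest mean or 2 of smallest p, with the 5 rows most like the members and the host transcripts. Exceptions, named after their values were seen, are Emx1, Asmt, Mki67, Top2a, Rxrg, Sall3, Grm6, Nyx, Prkca, Calu, Abi3 and Arhgdib. The other lists are given mainly by counts. Some items are not reported here. Positions and 3' UTRs come from GENCODE M21 (GRCm38) and promoters from RefSeq. Alternatives changed the pseudocount (0.1, 0.5), the filter, the scaling, the variance model or the motif, added a replicate block, or left out 1 library.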

Additional observations from a re-analysis of the deposited data

How the results depend on the processing

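None of the 10 members was called in any of the 16 alternative fits, with limma adjusted p (Benjamini-Hochberg) from 0.205 to 0.997, and 9 kept their direction in each fit that tested them. Cnga3 was not tested at a mean of at least 5 FPKM. The log2 fold change of Cngb3 ran from -0.023 without DKO replicate 1 to 0.15 without DKO replicate 3. The count of all rows called was 3 in the main fit and 1 with eBayes without a trend. It was 4 with quantile normalization, 4 with weights per library (arrayWeights) and 2 with a replicate block. When single libraries were left out it was 1 to 4. Members lower at an unadjusted p under 0.05 numbered 2 to 6 without single libraries, against 3.34% to 4.24% of all rows, and members whose groups did not overlap 3 to 7, against 11.0% to 13.1% of all rows. The Arr3 share difference lay between -0.067 and 0.095 percentage points without single libraries, and that of Cngb3 between -0.10 and 0.18. With a 6-base site 2 members had a miR-124 match, and with the 5-base core, chosen after seeing the data, 3 members had a promoter match. The cause of these changes was not tested.

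Replicate numbers are shared by the groups but nothing in the labels pairs the libraries, and the correlation of deviations between libraries of one number was 0.072, 0.0063 and 0.10. The fit with a replicate block called 2 rows and 0 members, with 4 members lower at an unadjusted p under 0.05. FPKM values are subject to counting error but do not record its size. The precision given for Cnga3 and Cngb3, the lowest members, rests on the spread between 3 libraries a group. Limma also draws that spread toward a variance trend over all tested rows.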
